A study of Mus musculus with 617 samples.

Results

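The neuropeptide and secretory granule genes described here are 10 of the 43628 genes in each deposited expression table: Cartpt, Resp18, Cpe, Chga, Chgb, Scg2, Scg3, Scg5, Pcsk1 and Uts2b. They were picked by symbol as a family whose level in the motor neuron cultures was already known, so their values in those cultures are a description and carry no test. RNA of 617 single mouse cells in 13 groups was measured by SMART-seq2, a full-length RNA-seq method for single cells. Cultured cells came from a female and a male embryonic stem (ES) cell line, both F1 hybrids from C57BL/6J mothers and CAST/EiJ fathers. From each line there were ES cells in 2i and LIF (60 female and 51 male cells), ES cells with LIF in serum medium (68 and 52), epiblast stem cells kept with Activin A and FGF2 (Epi, 79 and 63), and a motor neuron culture (39 and 35). The motor neuron cultures were made by way of embryoid bodies treated with retinoic acid and the smoothened agonist SAG, and the labels say that the procedure also gives interneurons. A further female Epi culture had 7 passages (41 cells). Embryo cells were inner cell mass at E3.5 (23 cells), epiblast at E4.5 (23 cells) and epiblast at E5.5 with C57BL/6J as both parents (20 female and 63 male cells). A state was thus represented by 1 culture per line, and line and sex are the same factor.

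Neurons and endocrine cells store peptides in dense-core granules and release them on stimulation. Precursor proteins enter the granule with granins, acidic proteins that aggregate and help to form the granule, and are cut there by prohormone convertases and trimmed by carboxypeptidase E. Cartpt and Uts2b encode peptide precursors. Chga, Chgb, Scg2 and Scg3 encode granins. Cpe is carboxypeptidase E, Pcsk1 is prohormone convertase 1, Scg5 encodes 7B2, the chaperone of the related convertase encoded by Pcsk2, and Resp18 encodes a protein of the neuroendocrine secretory pathway. Levels are given as FPKM, fragments scaled to transcript length and library size, so genes can be set side by side. Read depth per cell is unknown, and the median cell had between 8122 and 10840 genes at 1 FPKM or more, by group.

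The promoters of the family are shown because genes of this kind are textbook examples of promoters with a cAMP response element, TGACGTCA, and because most members were high in the same cells. RefSeq windows from 250 bases before to 50 bases after the transcription start (build GRCm38.p6) matched 9 of the 10 members, all but Cpe. The element was present, on either strand, in 4 of the 9 windows (Cartpt, Chgb, Scg2 and Pcsk1), against 1.79% of all 32851 windows of 300 bases. Its first base lay at position -112 from the start in Cartpt, -72 in Chgb, -68 in Scg2 and -78 in Pcsk1. Capitals mark it in the windows of Cartpt (chr13:99900634-99900933, minus strand), Chgb (chr2:132781392-132781691, plus strand), Scg2 (chr1:79439977-79440276, minus strand) and Pcsk1 (chr13:75089607-75089906, plus strand).
Cartpt: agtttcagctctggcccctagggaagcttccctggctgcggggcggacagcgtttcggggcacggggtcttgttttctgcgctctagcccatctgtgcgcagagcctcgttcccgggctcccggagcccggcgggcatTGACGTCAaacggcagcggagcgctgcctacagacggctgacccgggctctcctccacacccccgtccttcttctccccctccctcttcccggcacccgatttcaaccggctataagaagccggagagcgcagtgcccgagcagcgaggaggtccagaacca
Chgb: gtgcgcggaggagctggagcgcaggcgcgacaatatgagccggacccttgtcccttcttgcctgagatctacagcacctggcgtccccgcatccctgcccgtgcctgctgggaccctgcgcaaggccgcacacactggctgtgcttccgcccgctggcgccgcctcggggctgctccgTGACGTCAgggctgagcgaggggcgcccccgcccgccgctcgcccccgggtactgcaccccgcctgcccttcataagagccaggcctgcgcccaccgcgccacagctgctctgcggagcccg
Scg2: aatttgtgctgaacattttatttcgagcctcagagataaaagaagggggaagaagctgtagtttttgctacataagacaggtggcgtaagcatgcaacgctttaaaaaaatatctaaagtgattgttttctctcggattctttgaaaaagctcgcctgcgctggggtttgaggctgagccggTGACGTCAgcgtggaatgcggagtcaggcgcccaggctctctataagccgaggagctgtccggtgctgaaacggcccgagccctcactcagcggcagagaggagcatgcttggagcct
Pcsk1: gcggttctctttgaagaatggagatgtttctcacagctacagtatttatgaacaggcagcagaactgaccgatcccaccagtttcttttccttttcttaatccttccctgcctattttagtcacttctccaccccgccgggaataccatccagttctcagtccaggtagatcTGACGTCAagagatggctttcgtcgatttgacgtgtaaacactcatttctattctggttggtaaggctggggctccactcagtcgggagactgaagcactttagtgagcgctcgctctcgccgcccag
The shorter core TGACG, which the full element contains, was found in 7 of the 9 windows, those 4 and Chga, Scg3 and Scg5, against 20.8% of all windows. Resp18 and Uts2b had neither form. The letters of a TATA box, TATAAA, on either strand, were found in Chga, shown in capitals below (chr12:102554691-102554990, plus strand), and in Uts2b, against 13.6% of all windows. In Chga they lay at position 5, after the annotated start and not upstream of it, and in Uts2b at position -56, overlapping a match on the other strand at -58.
Chga: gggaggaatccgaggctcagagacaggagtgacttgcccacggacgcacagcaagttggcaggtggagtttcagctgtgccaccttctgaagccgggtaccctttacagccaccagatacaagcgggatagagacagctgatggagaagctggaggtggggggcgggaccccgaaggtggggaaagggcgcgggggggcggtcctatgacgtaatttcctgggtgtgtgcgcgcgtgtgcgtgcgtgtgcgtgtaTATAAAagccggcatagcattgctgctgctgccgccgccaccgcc
The Chga window held the core TGACG at position -44. The homeodomain core TAATTA was in none of the 9 windows and in 5.29% of all windows. The GC box GGGCGG was in 5 of 9, against 35.7%. Of the site of REST, a repressor of neuronal genes, the left part TTCAGCACC was in Scg2 only, against 0.37%. Its right part GGACAGC was in Cartpt and Scg2, against 6.56%. The 4 windows with TGACGTCA held 13 to 31 CG dinucleotides, against a median of 7 in all windows (quartiles 3 and 20). The part of base composition in the matches was not tested. These matches are letters in a window, and nothing in the files measures binding.

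Cartpt was the leading member. It lies on chromosome 13 at 99898489 to 99901091 (GRCm38) and encodes the precursor of cocaine- and amphetamine-regulated transcript peptide. Its mean over cells was 2014 FPKM (female) and 3068 FPKM (male) in the motor neuron cultures, rank 33 and rank 13 of 21551 protein-coding genes. Single cells of the female culture ran from 0 to 17720 FPKM with a median of 65.2, and those of the male culture from 0 to 17578 with a median of 319. The mean was carried by few cells: the 3 highest held 63.8% of the female and 41.9% of the male total. Outside these cultures Cartpt was close to absent. It reached 1 FPKM in 2 of 60 female and 2 of 51 male 2i cells, with a highest value of 11.5 FPKM, and in no cell of the serum, Epi or embryo groups. For the male serum culture, 0 of 52 cells allows a share of up to 5.77%. Such limits and the intervals below cover counting error only.

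Uts2b, the precursor of urotensin 2B on chromosome 16, was high in a few cells only. Its mean was 143.2 FPKM (female) and 269.9 FPKM (male) in the motor neuron cultures, yet the median was 0 in both. In the female culture 4 cells held 926 to 2140 FPKM and the other cells at most 24.2. In the male culture 1 cell held 9265 FPKM, the next 174, and the other cells at most 3.49, so that the male mean rested on a single cell. All 6 of these cells also had Cartpt at 1803 FPKM or more and Tubb3 at 1741 FPKM or more. Elsewhere Uts2b was seen in 1 cell, at E3.5 (1.37 FPKM).

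Granins were present at lower levels. Chga (chromogranin A, chromosome 12) averaged 29.2 (female) and 78 FPKM (male) in the motor neuron cultures, with single cells between 0 and 293 and between 0 and 477. Chgb (chromogranin B, chromosome 2) averaged 16 and 48.6 FPKM, with highest cells at 134.04 and 228.2. Scg2 (secretogranin 2, chromosome 1) averaged 19 and 52.2 FPKM, with highest cells at 168 and 299. Scg3 (secretogranin 3, chromosome 9), which links granins to the granule membrane, averaged 31 and 85.2 FPKM, with highest cells at 219 and 302. The median cell of the female culture had at most 0.05 FPKM of each granin, while the male medians were 8.68 (Chga), 23.4 (Chgb), 13.1 (Scg2) and 0.26 (Scg3). The male mean was higher than the female for all 4. With 1 culture per sex, this difference has no test. The share of cells of high Tubb3, given below, was also larger in the male culture, and its part in the difference was not tested.

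Among the processing genes, Cpe (chromosome 8) averaged 122.4 (female) and 138.2 FPKM (male) in the motor neuron cultures, with medians of 13.1 and 81.3 and highest cells at 611 and 673. Scg5 (chromosome 2) averaged 85.2 and 312 FPKM, with medians of 0 and 63.2 and highest cells at 687 and 1171. Resp18 (chromosome 1) averaged 212 and 463 FPKM, with medians of 2.16 and 67.2 and highest cells at 2301 and 1724. Pcsk1 (chromosome 13) was the exception in the family. It was detected in 1 of 39 female cells (6.94 FPKM) and 1 of 35 male cells (29 FPKM), giving means of 0.18 and 0.83 FPKM. It was at 0 in all 63 male Epi cells and in all 23 cells at E3.5 and all 23 at E4.5. The highest mean in other groups was 0.84 FPKM (male 2i), and the largest share of cells at 1 FPKM was 30.2% (95% Clopper-Pearson interval 19.2 to 43), in male E5.5 epiblast. The family was thus unequal by processing step: carboxypeptidase and chaperone were high and convertase 1 was not.

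In order of mean FPKM per length, the female motor neuron culture had Cartpt, Resp18, Uts2b, Cpe, Scg5, Scg3, Chga, Scg2, Chgb and Pcsk1. The male culture had Cartpt, Resp18, Scg5, Uts2b, Cpe, Scg3, Chga, Scg2, Chgb and Pcsk1. The order thus differed in the place of Scg5. From Resp18 to Chgb the steps between neighbours were smaller than the spread over cells: the SD over cells was 500.96 FPKM for Resp18 and 185 for Cpe in the female culture, and 103.1 for Scg3 and 112.4 for Chga in the male culture. These are SDs over cells of mixed kinds within 1 culture, so the order has no replicate check. Pcsk1 stood apart from Chgb, its neighbour, since it was seen in 1 cell per culture.

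**Figure D1:**
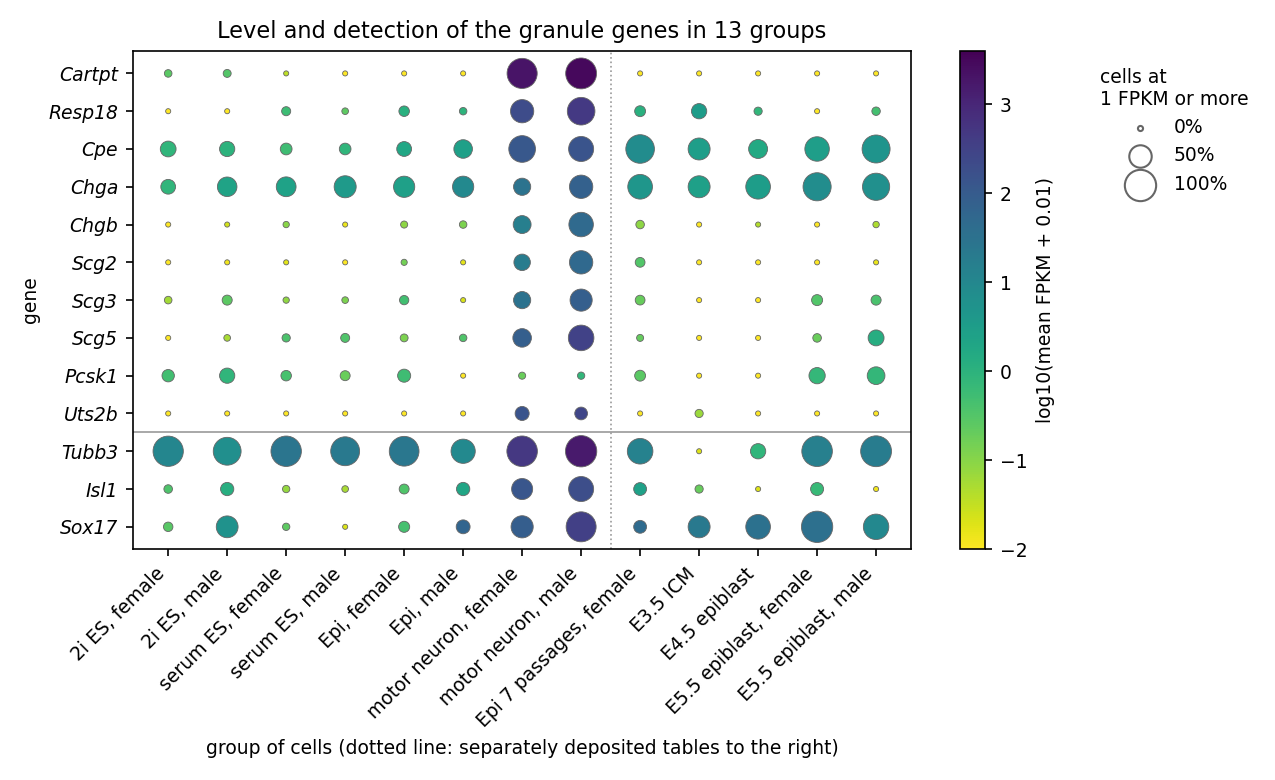
Mean level (colour, log10 of FPKM plus 0.01) and share of cells at 1 FPKM or more (dot size) of the 10 genes and of Tubb3, Isl1 and Sox17 in 13 groups. Most members are high in the motor neuron columns, while Cpe and Chga are seen in every group and Pcsk1 is low in all.

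Of the 10 members, 9 averaged at least 1 FPKM over the 8 cultures of the first table and entered the model, most of them through their motor neuron values, and Pcsk1 (0.43 FPKM) did not. The log2 difference of motor neuron from serum cultures was computed in each line on log2(mean FPKM + 1), a scale that understates changes of low genes. It was at least 1 in each line for 9 of these 9, against 30.1% of the 15504 genes in the model, and nothing is read from this count because the members were picked on these cultures. Cartpt differed by 10.94 in the female and 11.58 in the male line, Resp18 by 7.08 and 8.56, and Uts2b by 7.17 and 8.08. Scg5 differed by 5.98 and 7.87, Cpe by 6.32 and 6.23, Scg3 by 4.89 and 6.27. Scg2 differed by 4.31 and 5.73, Chgb by 3.97 and 5.63, and Chga by 3.16 and 4.08. The median gene was 0.71 higher in motor neuron than in serum cultures on this scale, and 0.18 higher after each cell was rescaled to one sum, so values are best read relative to that shift.

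The contrasts that the choice of members did not use were tested with limma, with 2 cultures per state as samples. Both contrasts use the same serum cultures and are not independent. A gene was called where its log2 difference reached 1 and its adjusted p (Benjamini-Hochberg) was under 0.05. Serum against 2i called 0 of the 9 members, against 0.0193% of 15504 genes. An unadjusted limma p under 0.05 was found for 0 members and for 1549 of the 15504 genes. Epi against serum called 0 of 9, against 0.0387% of genes. Here 1 member, Cpe, and 1000 of the 15504 genes had an unadjusted limma p under 0.05. Nothing is read from these counts. Few genes of any kind were called, and 6 of the 9 members had entered the model through their motor neuron values while near 0 here, so that they could hardly be called. Uts2b was at 0 in all 6 of the 2i, serum and Epi cultures, and the highest of their means was 0.30 FPKM for Cartpt, 0.12 for Chgb, 0.15 for Scg2, 0.50 for Scg3 and 0.37 for Scg5.

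Cpe averaged 0.55 FPKM in female and 0.86 FPKM in male serum cells and 1.87 and 2.74 FPKM in female and male Epi cells. The log2 difference was 0.95 (SE 0.28), 0.89 in the female and 1.01 in the male line, with an unadjusted p of 0.0142 and an adjusted p of 0.727 by limma with Benjamini-Hochberg adjustment. The adjusted p ranged from 0.0755 to 1 over the alternatives. Chga averaged 0.87 and 2.28 FPKM in female and male 2i cells, 2.38 and 3.68 in serum cells, and 2.78 and 9.03 in Epi cells. Its log2 difference was 0.68 (SE 0.66) for serum against 2i and 0.63 (SE 0.66) for Epi against serum, with limma adjusted p of 0.878 and 0.824. Without the male Epi culture the second difference was -0.073, so it rested on that culture. Resp18 averaged 0.57 and 0.23 FPKM in serum and 1.09 and 0.96 FPKM in Epi cells, a log2 difference of 0.54 (SE 0.41) with a limma adjusted p of 0.76 (0.7598). The remaining members averaged under 1 FPKM in these states.

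Cpe and Chga were also the members seen in the other tables, which were normalised separately and are set side by side without a test. Cpe averaged 7.95 FPKM in the 7-passage Epi culture, where 34 of 41 cells (82.9%, interval 67.9 to 92.8) had 1 FPKM or more, against 16 of 79 cells (20.3%, interval 12.0 to 30.8) in the first female Epi culture. At E3.5 and E4.5 it averaged 3.00 and 1.65 FPKM, and at E5.5 it averaged 2.97 FPKM in female and 5.08 FPKM in male cells, with 12 of 20 and 50 of 63 cells at 1 FPKM or more. Chga averaged 4.45 FPKM in the 7-passage Epi culture, 2.69 at E3.5, 3.20 at E4.5, and 7.5 and 6.44 in female and male E5.5 cells. Resp18 averaged 3.29 FPKM at E3.5 from 5 of 23 cells, and Scg5 averaged 1.27 FPKM in male E5.5 cells from 15 of 63 cells. All of these means lay below those of both motor neuron cultures, but shares of cells did not follow. Chga reached 1 FPKM in 28.2% of female and 54.3% of male motor neuron culture cells. It did so in 38.2% and 48.1% of serum, 61% of 7-passage Epi, and 80% and 74.6% of female and male E5.5 cells. Cpe did so in 71.8% and 62.9% of motor neuron culture cells, below the 7-passage Epi and male E5.5 (79.4%) shares and above the female E5.5 share (60%).

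The cells labelled motor neuron were not alike. Tubb3, which encodes a neuronal tubulin, ran from low to high values, with a wide gap in the female culture only. A division at 800 FPKM, set after the values were seen, is used below. In the female culture 7 of 39 cells lay above it (lowest 1652 FPKM) and 32 below (highest 386). In the male culture 16 of 35 lay above (lowest 969 FPKM) and 19 below (highest 693), with 4 male and 0 female cells within 2-fold of the division. At 400 or 1500 FPKM instead, 18 or 14 male cells and still 7 female cells lay above. All 13 neuron markers of a list and 12 of 15 motor neuron markers averaged higher above the division in both cultures, and 15 of 18 endoderm markers averaged higher below it. The summed endoderm markers ran from 6.71 to 357 FPKM above the division and from 846 to 7682 below it in the female culture, and from 25.7 to 8237 and from 1667 to 35876 in the male culture. Among the defining motor neuron factors, Isl1 averaged 697 and 413 FPKM above the division and Lhx3 was at 0 in every cell there. Interneuron markers were scarce (median sums of 20.2 and 7.54 FPKM above the division). Summed markers of pancreatic endocrine cells (13 genes) ran from 548 to 941 FPKM above and from 0 to 77.1 below the division in the female culture, and from 0 to 4743 and from 0 to 39.1 in the male culture. Of these genes Isl1, which motor neurons share, and Sst averaged higher above the division in both cultures, and Ins1, Ins2 and Pax4 were at 0 in every cell. Most cells of the 2 cultures, 51 of 74, thus lay below the division.

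The granule genes followed this division. All 7 female and 15 of 16 male cells above it held each of the 8 members other than Pcsk1 and Uts2b at 10 FPKM or more, and 0 of 32 female and 0 of 19 male cells below it did. The exception was 1 male cell with Chga at 0, Resp18 at 5.31 FPKM and the largest Sox17 level of the 16 (353 FPKM). It also had the fewest genes of them, 6744. Cartpt ran from 1803 to 17720 FPKM (median 13599) above the division and from 0 to 1433 (median 49.5) below it in the female culture. In the male culture it ran from 698 to 17578 FPKM (median 5597) above and from 0 to 333 (median 77.6) below. The ranges of Cartpt, Scg2, Scg3 and Scg5 above and below the division did not overlap in either culture. The same held for the neuron markers Gap43, Nefl, Nefm, Map2, Elavl3 and Elavl4, so this separation was not particular to the granule genes. The share of all genes without overlap was not counted, so nothing is read from it. Chgb overlapped through 1 female cell, Chga through the male cell at 0, and Resp18 through that same male cell. For Cpe, 5 female and 2 male cells below the division exceeded the lowest value above it.

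Scg3 was among the members with the least signal below the division. It averaged 168 ± 46.7 FPKM (SD over 7 cells) above and 0.94 below in the female culture, and 186 ± 64.3 (SD over 16 cells) and 0.39 in the male culture. Scg5 averaged 455 and 669 FPKM above and 4.29 and 11.7 below. Resp18 averaged 1125 and 993 FPKM above and 12.7 and 17.7 below. Averages of the granins above the division were close in the female and male cultures: 154 and 168 FPKM for Chga, 79.6 and 101.8 for Chgb, and 103.85 and 111.3 for Scg2. Above the division the mean of Chga, Chgb, Scg2, Scg3 and Scg5 was higher in the male and that of Cartpt, Resp18, Cpe and Uts2b in the female culture. Cartpt averaged 10578 ± 6922 FPKM in female and 6558 ± 5369 FPKM in male cells there (SD over 7 and 16 cells), and Cpe 385.4 and 283.6 FPKM. With 1 culture per sex none of these differences has a test. Of male cells 45.7% and of female cells 17.9% lay above the division.

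**Figure D2:**
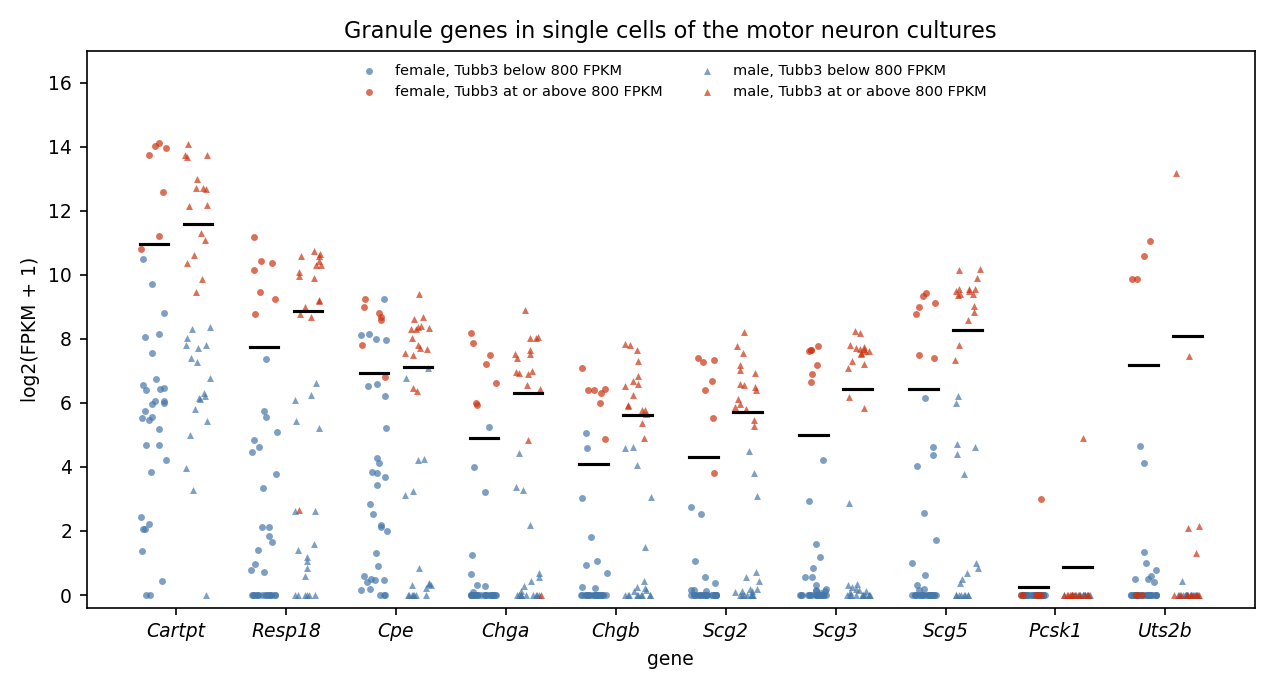
Level of the 10 genes, log2 of FPKM plus 1, in each of 39 female (circles) and 35 male (triangles) cells of the motor neuron cultures, coloured by whether Tubb3 reached 800 FPKM (red) or not (blue). Black bars are log2 of the culture mean plus 1. Red points lie above blue points for most members, Cartpt is above 0 in nearly all blue cells, and Pcsk1 is at 0 in all but 1 cell per culture.

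Cartpt and Cpe were also found below the division. Cartpt reached 1 FPKM in 29 of 32 female and 18 of 19 male cells of low Tubb3, at a mean of 140 and 129 FPKM, or 1.33% and 1.96% of the mean above the division. Neuronal markers were also seen in the same cells: Stmn2 averaged 2.78% and 2.41% of its level above the division, Nefl 2.61% and 3.63%, and Tubb3 itself 2.27% and 3.15%. Stmn2 was as high in serum ES cells (167.5 and 128.5 FPKM) as in these cells (155.9 and 131.4 FPKM). Nefl averaged 58.9 and 91.6 FPKM in cells of low Tubb3 and 7.38 and 4.16 in serum cells, and Tubb3 57.5 and 107.7 against 26.9 and 21.6. Cartpt, by comparison, averaged 0.03 and 0 FPKM in serum cells. The origin of these low levels was not tested. No cell of the serum, Epi or embryo groups reached 1 FPKM of Cartpt, as given above.

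Cpe stood apart from that pattern in the female culture. Its mean below the division was 64.8 FPKM, 16.8% of that above (18.2% after each cell was rescaled to one sum), against 15.7 FPKM and 5.54% in the male culture. It was carried by 5 of the 32 female cells, which held 246.8 to 607 FPKM of Cpe, as much as cells of high Tubb3 (110.8 to 611 FPKM). These 5 cells had 13 to 104.4 FPKM of Tubb3, at most 10.4 FPKM of Sox17, and Chga under 1 FPKM, and 1 of them had Scg5 at 1 FPKM or more. Their summed endoderm markers were 1769 to 7682 FPKM, within the range of the other female cells of low Tubb3 (846 to 7240 FPKM) but for the highest. The medians were 2098 and 3495 FPKM, and only 2 of 18 endoderm genes averaged higher in the 5 cells. Of this list Apoe averaged 1194 and Sparc 177 FPKM in female serum cells, so the sum alone does not mark endoderm. In the male culture 2 cells of low Tubb3 exceeded 100 FPKM of Cpe (108.8 and 135.6), and both also had Cartpt above 300 FPKM, Chga, Chgb, Scg2 and Scg5. Summed endoderm markers were 1667 and 1890 FPKM in these 2 cells, against 5740 to 35876 in the other 17. There 0 of 18 endoderm genes averaged higher in the cells with Cpe. The female cells thus held Cpe largely without the granins, and all 7 cells were noticed after their values were seen. Their summed neural progenitor markers (11 genes) were high, at 3763 to 7030 FPKM in the 5 female cells, against a median of 336 in the other 27, of which 2 also reached 3763 FPKM. In the 2 male cells the sums were 4023 and 4734 FPKM, against 80 (80.05) to 1208 in the other 17. Vim, which encodes the filament protein vimentin and is not confined to progenitors, made up most of the female sums, with a mean of 5174 against 1036 FPKM, and Vim and Fabp7 most of the male sums. Sox2, a progenitor transcription factor, averaged 18.3 against 6.78 FPKM in the female and 14.1 against 0.48 FPKM in the male cells. Only 6 of the 11 genes averaged higher in the female and 7 of 11 in the male cells with Cpe. Sox1, Pax6 and Mki67 averaged lower in both. Mki67 was at 0.56 against 10.4 FPKM in the female and 7.52 against 10.4 FPKM in the male cells. The part of such cells in the Cpe level was not tested.

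**Figure D3:**
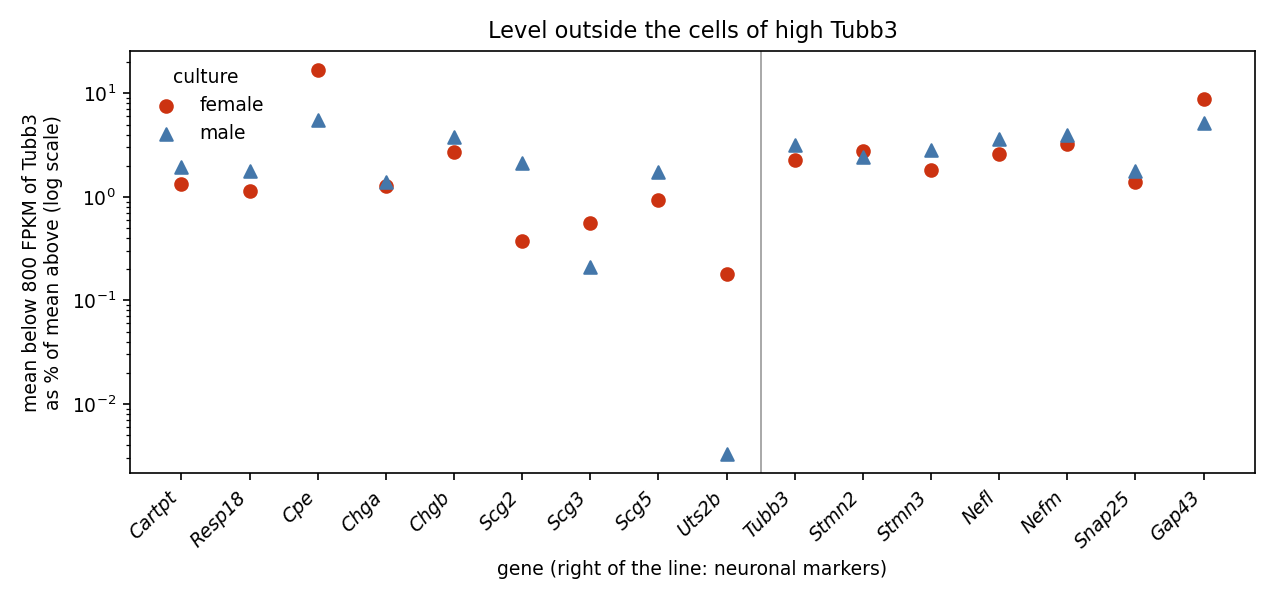
Mean below 800 FPKM of Tubb3 as a percentage of the mean above it (log axis) for 9 of the genes and 7 neuronal markers, female culture as circles and male culture as triangles. Cpe is highest among the members, at 16.8% in the female and 5.54% in the male culture, while most others lie between 0.2% and 4%.

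Across all cells of a culture the levels followed Tubb3 and Isl1, a motor neuron transcription factor, and were inversely related to Sox17, an endoderm transcription factor. For Cartpt, Spearman rho with Tubb3 was 0.60 over 39 female and 0.91 over 35 male cells. With Isl1 it was 0.56 and 0.71, and with Sox17 it was -0.36 and -0.74. Over the 8 members other than Pcsk1 and Uts2b, rho with Tubb3 ran from 0.35 (Scg3) to 0.71 (Chgb) in the female and from 0.75 (Chga) to 0.91 in the male culture. The same coefficient with Isl1 ran from 0.43 (Cpe) to 0.67 (Scg5) and from 0.66 (Resp18) to 0.83 (Scg2). With Sox17 it ran from -0.13 (Scg2) to -0.45 (Chgb) and from -0.71 (Scg3) to -0.81 (Scg5). All relations for these 8 had one sign in both cultures. With Tubb3 and Sox17 rho was nearer to 0 in the female culture for each of the 8, and this difference was not tested. Uts2b had rho of 0.39 and 0.34 with Tubb3, and Pcsk1 of 0.27 and 0.03, from few cells. These are descriptions over cells of 1 culture each, which share library preparation and depth. The FPKM sum per cell was also related to Cartpt (rho 0.57 and 0.55). Medians of that sum were 1789670 above and 1238700 below the division in the female culture and 1567310 and 1233480 in the male culture. After each cell was rescaled to the same sum, rho of Cartpt with Tubb3 was 0.60 and 0.92. With Isl1 it was then 0.56 and 0.73, and with Sox17 -0.42 and -0.71. Beyond these values, the part of the sum in the relations was not tested.

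**Figure D4:**
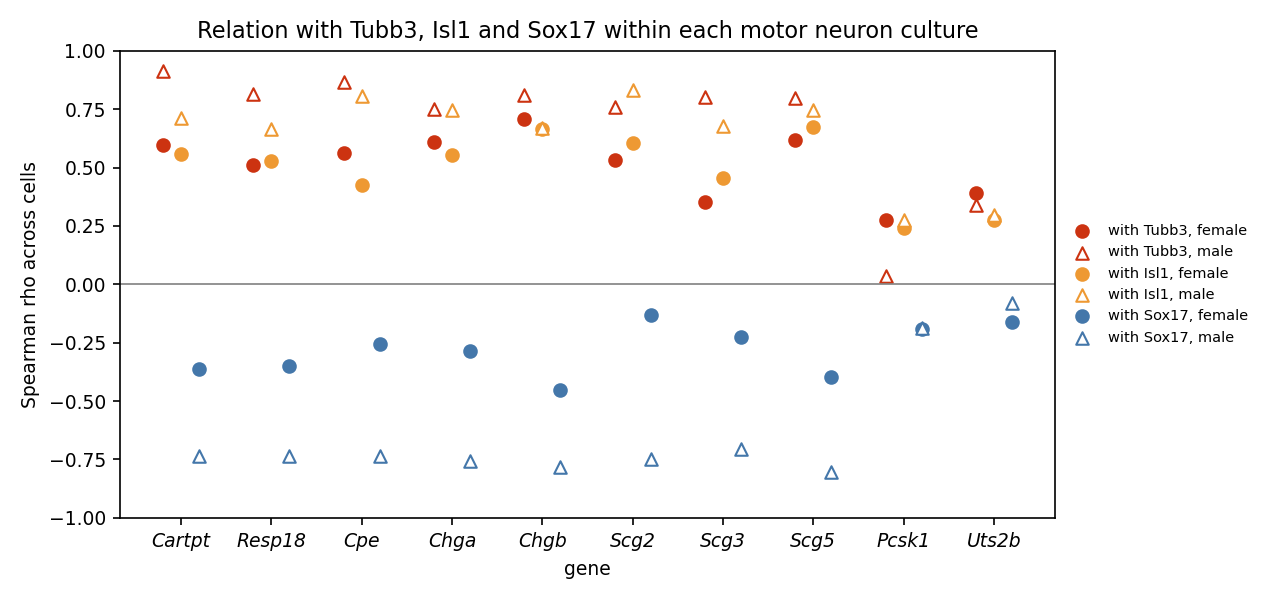
Spearman rho across cells of each gene with Tubb3 (red), Isl1 (orange) and Sox17 (blue), female culture (39 cells) as filled circles and male culture (35 cells) as open triangles. Values with Tubb3 and Isl1 are positive and values with Sox17 negative for all 10 genes, with the male culture farther from 0 for the 8 members other than Pcsk1 and Uts2b with Tubb3 and Sox17.

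Dividing cells by Isl1 at 1 FPKM gave the same picture in levels, and dividing by Sox17 at 1 FPKM did so less clearly. Cartpt averaged 4444 ± 6782 FPKM in 17 female cells with Isl1 and 135.9 ± 311 in 22 without, and 4742 ± 5452 in 22 male cells with and 233.8 ± 343 in 13 without (SD over cells). Scg5 averaged 189 FPKM with and 4.97 without Isl1 in the female culture, and 449 and 81 in the male culture. The male value without Isl1 came from 1 cell with 956 FPKM of Scg5 and 5627 FPKM of Tubb3 but Isl1 at 0, and without that cell it was 8.08. By Sox17 the division was weaker: Cartpt averaged 1392 FPKM in 19 female cells with and 2604 in 20 without, and 2642 in 32 male cells with and 7613 in 3 without. Without the 3 highest cells of each gene, Scg2 averaged 10.4 FPKM in female cells with and 3.52 without Sox17. Chgb (9.18 and 8.66) and Scg3 (16.7 and 16) were then about level. Cartpt, Resp18, Cpe, Chga and Scg5 still averaged higher in female cells without Sox17. Low amounts of Sox17 were common among cells of high Tubb3, of which 13 of 16 male cells reached 1 FPKM.

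The 8 members also moved with each other, at a median rho over the 28 pairs of 0.64 (0.48 to 0.83) in the female and 0.79 (0.71 to 0.87) in the male culture. Within the cells of high Tubb3 the median was 0.36 over 7 female cells and 0.07 over 16 male cells, with pairs from -0.39 to 0.86 and from -0.51 to 0.62. Among male cells of high Tubb3 the levels of these genes were thus nearly unrelated in the median pair. Among 7178 other genes, those most like the mean of the members across cells were Dbn1, Gap43, Map1b, Syt11 and Sncg, with the smaller of both rhos between 0.80 and 0.83. Those most like Cartpt were Nefl (0.85 and 0.86), Nefm (0.88 and 0.83), Sncg, Ptn and Gprasp1, where the first pair encodes neurofilament subunits.

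**Figure D5:**
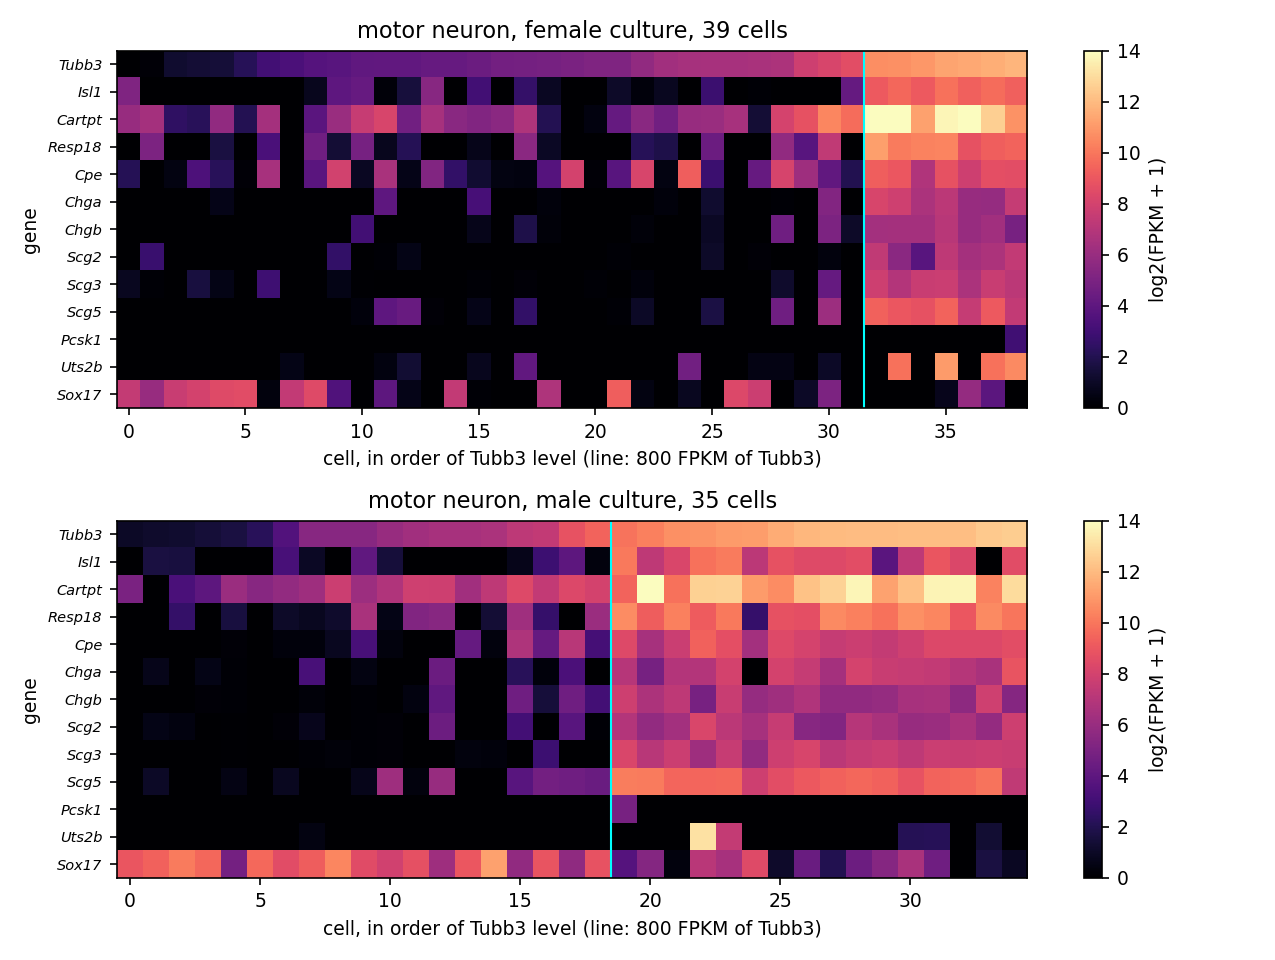
Cells of the female (39) and male (35) motor neuron culture in order of Tubb3, with log2 of FPKM plus 1 as colour for Tubb3, Isl1, the 10 genes and Sox17. Right of the line, at 800 FPKM of Tubb3, the granule genes are high together, Uts2b is high in 4 female and 2 male cells, and Pcsk1 is dark but for 1 cell per culture.

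Further genes of the pathway were taken from lists, and counts are of genes at least 2-fold higher or lower in the motor neuron than in the serum culture of each line, with no test, beside the 30.1% of all genes that were higher and the 4.72% that were lower. After each cell was rescaled to one sum these shares were 17.9% and 9.13%. When log2(FPKM + 1) was averaged over cells, which gives less weight to few high cells, 2443 of 15504 genes were higher and 1175 lower. Only list genes averaging at least 1 FPKM over the 8 cultures are counted. Of convertases and processing enzymes 7 of 13 were higher and 0 lower, with a median log2 difference of 2.00. With log2 averaged over cells 4 of 13 were higher. Pcsk1n, the inhibitor of convertase 1, averaged 75.1 and 98.4 FPKM in the female and male motor neuron cultures, from 8.79 and 4.08 in serum. Pcsk2, prohormone convertase 2, averaged 7.79 and 22.3 FPKM, from 0.17 and 0.10. Pam, which amidates peptides, averaged 46.2 and 24.8 FPKM, and Cpm, carboxypeptidase M, 18.6 and 46.5. Pcsk2 was thus the granule convertase present where Pcsk1 was near 0.

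Genes of the granule membrane and of exocytosis were higher in 18 of 21 cases, and in 12 of 21 after rescaling, where 17.9% of all genes were. With log2 averaged over cells 11 of 21 were higher. Syt4, a granule synaptotagmin, averaged 209 and 334 FPKM, Rab3a, a vesicle GTPase, 123.1 and 237.55, and Snap25, a fusion protein, 89.2 and 243.4, all at most 5.40 FPKM in serum. Atp6ap1, a proton pump subunit, was already present in serum (71 and 42.2 FPKM) and averaged 204 and 562.

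Other peptide precursors were mixed, with 11 of 27 higher and 3 lower, a share of 40.7%, and 9 higher and 4 lower after rescaling, against 17.9% and 9.13% of all genes. With log2 averaged over cells only 1 of 27 was higher and 4 were lower, so the larger counts depended on how cells were averaged. Gal (galanin) averaged 45.8 and 163 FPKM and Sct (secretin) 205 and 13.2. Sst (somatostatin) averaged 2.91 and 111.1 FPKM, where 1 male cell held 3610 FPKM. Rln3 and Adm2 were lower in each line, from 4.80 and 6.16 FPKM to 0.34 and 0 for Rln3. None came near Cartpt in mean level.

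Of other genes listed under granule content 3 of 4 were higher. Gnas averaged 715 and 764 FPKM, from 51 and 77.7 in serum. Levels are per gene, so transcripts of Gnas are not told apart and its level is no measure of granule content. Clu averaged 349 and 116.4 FPKM, and Nucb2, the precursor of nesfatin, 17.6 and 38.7. Only 3 of 23 peptide receptor genes were expressed enough to be compared. Adcyap1r1, the PACAP receptor, averaged 2.00 and 5.23 FPKM, and Gpr160, an orphan receptor, 4.15 and 1.55, from 16.1 and 18.5 in serum.

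Among 8 regulators 3 were higher and 2 lower, and 1 was higher and 2 lower with log2 averaged over cells. Rest, the repressor of neuronal genes, averaged 30.4 and 45.5 FPKM in female and male serum cells and 11.3 and 4.38 in the motor neuron cultures, and its cofactor Rcor2 25.1 and 26 against 8.90 and 7.91. Myt1, a neuronal transcription factor, averaged 2.81 and 13.2 FPKM, Neurod1 9.29 and 13.7, and Atf3, a stress-responsive factor, 62.4 and 55.8.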

How the data were processed

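The authors deposited FPKM per gene and cell in 4 tables, and the submitters' processing notes name STAR 2.4.1, Cufflinks, Cuffnorm 2.2.1 and build mm10. Annotation, strandedness, cell filters and read depth are not given in the sources used here. The minus sign of 356 exponents appeared as a low line and was restored. The highest log2 correlation of 2 cells was 0.938, so no 2 columns were copies. Symbols and coordinates came from GENCODE M21 (GRCm38).

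The members and lists were chosen with earlier results of these data known. Named list genes were up to 4 with the highest motor neuron mean among those at least 2-fold higher in each line, and up to 2 that fell most. Genes most alike were ranked by the smaller within-culture rho. Cells were averaged per culture, a culture was 1 sample, and log2(mean + 1) of 8 cultures (genes averaging at least 1 FPKM) entered limma 3.58.1 (R 4.3.3, trend = TRUE, 4 residual degrees of freedom), tested on simulated data. With cultures as the only samples, p-values measure the spread between 2 lines. The same lines were used in every state, per the labels, which pairs the cultures. Female minus male deviations correlated between states at r of 0.06 (0.0605) to 0.163 over 15504 genes.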

Additional observations from a re-analysis of the deposited data

Results flagged for a closer look

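Pcsk1 moved in opposite directions in the lines when the motor neuron culture was set against serum: the log2 difference was -0.26 in the female and 0.64 in the male line. Each value rests on 1 motor neuron culture cell with Pcsk1, and the difference between lines was not tested.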

How the results depend on the processing

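No member was called in serum against 2i or in Epi against serum under any of the 36 alternatives run, among them the line as a replicate block (0 members called in each contrast), which pairs the lines. The block changed no call of a member but fewer genes were called with it. Nothing is read from the lack of calls, since most members were near 0 in these states and could hardly be called under any setting. Over all genes the first contrast called 1 higher and 2 lower, against 0 with the block and 29 and 82 with the 7-passage Epi culture. The second called 5 and 1, against 1 and 1 with the block and 398 and 378 with the 7-passage culture. The 9 members stayed past 2-fold in 14 of 15 alternatives for motor neuron against serum, and 7 did when log2 values were averaged over cells, where Uts2b differed by 1.09 and Chga by 1.38 instead of 7.63 and 3.62. Most of the 14 say little. Leaving out a 2i or Epi culture or changing the filter could not alter these differences. Without a serum or motor neuron culture only 1 line was checked. With both lines checked, only a change of pseudocount, scaling, averaging or cells kept could move them. A pseudocount of 0.1 moved Uts2b to 10.94. The difference of Chga between Epi and serum was -0.073 without the male and 1.34 without the female Epi culture, the range over cultures left out. Signs of the 8 leading members' relations with Tubb3, Isl1 and Sox17 held in 192 of 192 alternatives and in 96 of 96 values within runs of title numbers, added after seeing the data. Among the 192, leaving out cells with under 50% of the median number of genes removed 1 female and 0 male cells. That setting could thus not change the male values. FPKM without counts limits precision near 1 FPKM, and sexes and separately normalised tables had no replicate.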

Other observations

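Some genes of the pathway lists that were higher in the motor neuron cultures averaged lower in cells of high than of low Tubb3. Cpm averaged 0.26 FPKM in female and 8.12 FPKM in male cells of high Tubb3, and 22.6 and 78.9 FPKM in cells of low Tubb3. Nmb, the neuromedin B precursor, averaged 14.7 and 4.27 FPKM in cells of high Tubb3 and 23 and 87.2 FPKM in cells of low Tubb3. Atf3 averaged 10.3 and 39.4 FPKM in cells of high Tubb3 and 73.8 and 69.7 FPKM in the others. By contrast Pcsk2 averaged 43.1 and 48 FPKM above and 0.06 and 0.63 FPKM below the division, and Pcsk1n 378 and 207 FPKM above and 8.92 and 7.27 below. Rest was lower where the granule genes were high, at 2.92 and 0.94 FPKM above and 13.1 and 7.27 FPKM below. These are means over cells of 1 culture per sex, with no test.

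Slc18a3, the vesicular acetylcholine transporter of motor neurons, averaged 159 and 339 FPKM in cells of high Tubb3 and 5.07 and 3.62 FPKM in the others. Mnx1, a factor of somatic motor neurons, averaged 8.69 and 1.64 FPKM in female and male cells of high Tubb3, with 3 of 7 and 3 of 16 cells at 1 FPKM or more.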
